A study of Mus musculus with 6 samples.

Results

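Bile duct nuclei are the nuclei of cholangiocytes, the epithelial cells that line the ducts draining bile from the liver. They were chosen from the deposited count matrices by a fixed rule on counts of unique molecular identifiers (UMIs, 1 per captured RNA molecule). The rule kept nuclei with at least 500 genes, at least 1000 UMIs and a mitochondrial share under 5%. It then required under 0.3% of UMIs from Apob, Cps1, Abcb11 and Mat1a (hepatocyte genes) and at least 4 UMIs summed over Pkhd1, Spp1, Epcam, Cftr and Sox9. At most 3 UMIs were allowed over Stab2, Ptprb, Clec4f and Reln (sinusoidal endothelial, macrophage and stellate genes), and at most 1 over Dmbt1 and Mmp7, which mark a separate set of biliary epithelial nuclei. Of 26467 nuclei past the quality limits, 533 met the rule, or 2.01%. They held 2414128 UMIs.

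The nuclei came from the livers of 6 male mice, 18 weeks old, fed chow and fasted for 12 hours overnight, with 1 library per mouse. Of these, 3 were littermate controls (Plvap Control) and 3 were labelled Plvap knockout. All 6 carry the same strain labels, C57BL/6JBomTac and Plvaptm1.1Salm-Tg(Lrat-cre)1Rshw, so the labels do not say whether the controls carry Cre. Lrat drives expression in hepatic stellate cells, the retinoid-storing pericytes of the sinusoid, so the deletion is aimed at cells other than those described here. The study asked how stellate cells, through the diaphragm protein PLVAP, act on fatty acid use in the fasted liver.

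Cholangiocytes modify bile by secreting chloride, bicarbonate and water, largely through the chloride channel CFTR at the apical membrane. Each carries a primary cilium that senses flow, and mutations in ciliary proteins such as fibrocystin, the product of Pkhd1, cause polycystic liver and kidney disease. The transcription factors SOX9 and ONECUT1 direct biliary development, and osteopontin, encoded by Spp1, is a secreted phosphoprotein of the duct.

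The members were spread over every library. The controls gave 86 of 5172 nuclei (1.66%, exact 95% interval 1.33 to 2.05), 135 of 4812 (2.81%, 2.36 to 3.31) and 54 of 3608 (1.5%, 1.13 to 1.95). The knockouts gave 98 of 4562 (2.15%, 1.75 to 2.61), 100 of 4204 (2.38%, 1.94 to 2.89) and 60 of 4109 (1.46%, 1.12 to 1.88). Both groups thus ranged from about 1.5% upward and overlapped throughout. The mean share was 1.99% ± 0.713 in controls and 2% ± 0.478 in knockouts (SD, n = 3 mice each). The 2-sided exact permutation test gave p = 1, where the smallest p that 3 mice against 3 allow is 0.1. Intervals here and below cover counting error only. Shares of nuclei also depend on how nuclei were released, which was not tested. Median depth of the members lay between 3815 and 4496 UMIs per mouse. Of the barcodes, 1 to 10 were shared by any pair of libraries, and none of these was a member in both.

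**Figure D1:**
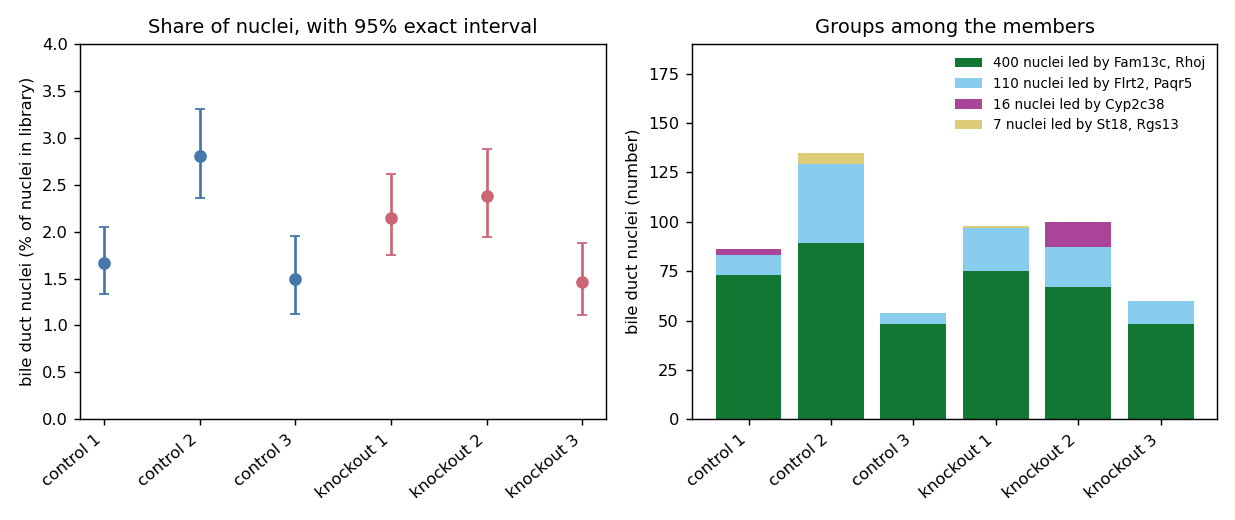
Left, bile duct nuclei as a percent of the nuclei of each library, with exact 95% intervals. Right, the number of bile duct nuclei per library, split into the 4 groups found by clustering, where the 16 nuclei led by Cyp2c38 come from control 1 and knockout 2 and the largest bar is control 2 with 135 nuclei.

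The 5 markers that chose the members are given as a description. Pkhd1 had a UMI in 99.1% of members, Spp1 in 92.9%, Epcam in 40.2%, Sox9 in 34.3% and Cftr in 23.8%. Of the members, 223 (41.8%) had UMIs of 3 of the 5 markers, 158 had 2, 110 had 4, 20 had all 5 and 22 had 1. Levels per mouse, in CPM (UMI counts scaled to a common library total, here with edgeR's TMM factors), were 7838, 6462 and 6028 for Pkhd1 in the controls and 8169, 6532 and 6513 in the knockouts. Spp1 stood at 3320, 2446 and 3155 in the controls and 2126, 2608 and 4636 in the knockouts. For Pkhd1 and Spp1 alike the groups overlapped, and the widest spread was that of Spp1 in the knockouts. For Cftr, the apical chloride channel, the controls read 108, 138 and 121 CPM and the knockouts 255, 82.5 and 153. Knockout 1 was the highest of the 6 and knockout 2 the lowest.

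Duct genes outside the rule were checked next, against 2709 nuclei with at least 1% of UMIs from the 4 hepatocyte genes. Controls 1 to 3 supplied 66, 583 and 878 of these and knockouts 1 to 3 supplied 521, 46 and 615, few of them from control 1 or knockout 2. Since those nuclei were deeper (a median of 11103 against 4062 UMIs), each nucleus was thinned to 1000 UMIs, with 1000 hepatocyte nuclei drawn. Glis3, a transcription factor of ductal and ciliated cells, then had a UMI in 88.2% of members and 1.3% of hepatocyte nuclei (unthinned 96.4% and 7.24%). Bicc1, an RNA-binding protein of the ciliary pathway, was found in 87.2% and 0.8% (unthinned 94.9% and 5.98%). For Onecut1 the shares were 36.6% and 4.4%, and for the adhesion protein Cdh1 36.6% and 6.4% (unthinned 74.1% and 27.0%, and 72.8% and 35.6%). The biliary keratins were sparse in these nuclei: Krt19 had a UMI in 4.5% of thinned members and Krt7 in 3.56%, against none of the 1000 hepatocyte nuclei for each, which allows up to 0.3% (unthinned 18.6% against 0.406% and 11.6% against 0.0369%). The label fits most members by these genes, with the exceptions described next.

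**Figure D2:**
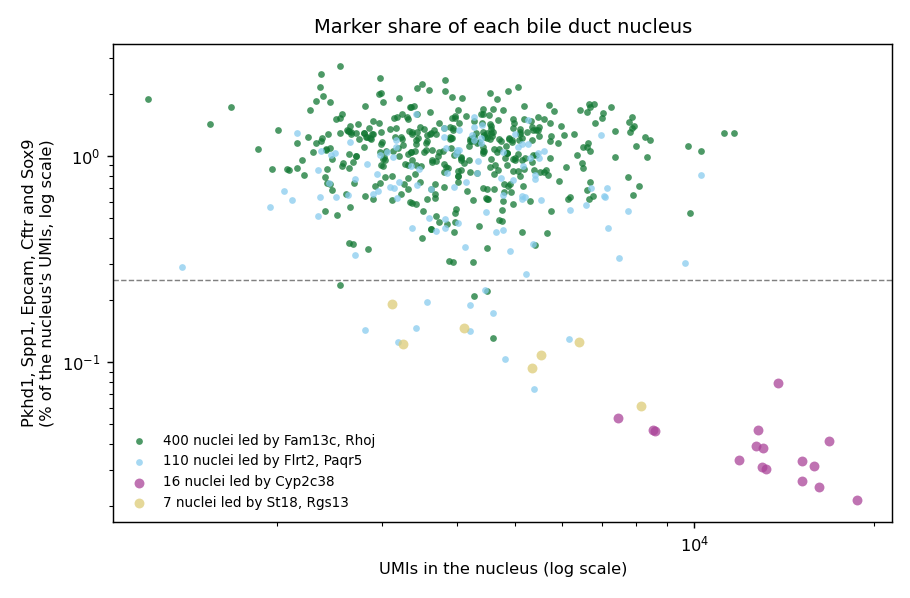
Each point is a bile duct nucleus, placed by its UMIs and by the percent of them from the 5 rule markers, both on log scales. The dashed line marks 0.25%, and 38 nuclei lie below it, among them all 16 led by Cyp2c38 and all 7 led by St18.

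Clustering of the members alone gave 4 groups, whose leading genes define them and are not tested. The groups of 400 and 110 nuclei both carried the duct genes: Glis3 stood at 3129 and 3151 CPM of the group's own total and Bicc1 at 3026 and 3081. A group of 16 nuclei did not. It was led by Cyp2c38, Slc1a2 and Slc22a30 and also by Lipc and by Cyp7a1, the rate-limiting enzyme of bile acid synthesis, all hepatocyte genes or transporters. Its nuclei had a median of 13107 UMIs, of which 4 came from the rule markers, and Spp1 was found in 25% of them, Glis3 in 12.5% and Epcam, Cftr and Krt19 in none. They came from 2 libraries, 3 from control 1 and 13 from knockout 2. They met the letter of the rule, but their leading genes go against the label, and they are not called bile duct nuclei on that evidence.

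A group of 7 nuclei, 6 from control 2 and 1 from knockout 1, was led by St18, Rgs13, Lrmp, Sh2d6 and Pou2f3. Pou2f3, a homeodomain factor of chemosensory epithelia, had 49 UMIs in these 7 nuclei and 1 in the other members. Trpm5, a cation channel of taste and other chemosensory cells, had 26 UMIs against 0, and Chat, which makes acetylcholine, 25 against 0. With the floor of 3 UMIs for the other members, these are at least 574-fold higher for Trpm5 and at least 552-fold higher for Chat, in CPM. All 7 nuclei had a UMI of each of the 3 genes. They also kept Glis3 (48 UMIs), Epcam (in 85.7%) and Sox9 (in 71.4%), with no UMI of Bicc1, Cftr or Onecut1. No markers were fixed for such nuclei, so the group is left unnamed.

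The groups of 400 and 110 nuclei had different leading genes, of which some are given here. Leading genes were ranked against all other members, and the values here compare the groups of 400 and 110 alone. The larger was led by Fam13c and by Rhoj, a CDC42-like GTPase, at 388 CPM against 46.6 in the group of 110. Id1, a BMP-responsive helix-loop-helix inhibitor, also led it, at 128 against 14.8. Clu, the secreted chaperone clusterin, was at 1705 against 449, and Pigr, the receptor that carries IgA into bile, at 184 against 33.9. The group of 110 was led by Flrt2 (288 against 11.2 in the group of 400), by Paqr5, a membrane progestin receptor (212 against 9.45), and by Sgcd, Tmeff2 and Smpd3. It also held more Anxa3 (352 against 69.1) and more Klf5, an epithelial Krüppel-like factor (231 against 49.0). Krt19 stood at 112 CPM in the group of 110 and 54.3 in the group of 400, and Krt7 at 74.2 and 24.8. Cftr went the other way, at 78.4 and 162, as did Spp1, at 1706 and 3230.

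These genes were then read in the 208 nuclei that met every other part of the rule but had over 1 UMI of Dmbt1 or Mmp7, of which 191 came from control 2. That library therefore dominates the comparison. The 20 genes leading the group of 400 had a median of 38.3 CPM in those Dmbt1 or Mmp7 nuclei and 41.3 in the group of 110, and 6 of the 20 were higher in the former. Their lower level than in the group of 400 follows from how they were chosen. The 20 genes leading the group of 110 had a median of 149 CPM in the Dmbt1 or Mmp7 nuclei and 24.8 in the group of 400. Of these, 18 were higher in the Dmbt1 or Mmp7 nuclei than in the group of 400, where a low level follows from the choice. Against the group of 110 itself (median 229 CPM), 8 of the 20 were higher in the Dmbt1 or Mmp7 nuclei. Klf5 stood at 560 there against 231, whereas Tmeff2 was lower, at 165 against 970. The group of 110 made up 11.6%, 29.6% and 11.1% of members in the controls and 22.4%, 20% and 20% in the knockouts. Control 2 was the highest and the other controls the lowest, so the groups overlapped. The difference of the means was 3.36 percentage points, higher in knockouts (2-sided exact permutation test, p = 0.6).

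The genes most raised in the members over all other nuclei, at 100 CPM or more and with at least 10 UMIs in every mouse, describe the members and are not tested, since the rule and depth shape them. Ddit4l, an inhibitor of TORC1 signalling, led with 218 CPM against 0.723, a ratio of 302. Lamc3, a laminin chain of basement membranes, followed at 529 against 2.03, and Kcnma1, the BK potassium channel, at 1531 against 6.63. The glucose carrier Slc5a1, which takes up glucose from bile, was at 145 against 0.79. Veph1, an inhibitor of TGF-beta signalling, was at 309 against 2.28, Col4a6, a basement membrane collagen, at 122 against 1.71, and the epithelial factor Grhl2 at 224 against 3.36. The other genes of the first 25 were Spock3, Spp1, Wnk2, Ppp2r2b, Sytl5, Ctnnd2, Pkhd1, Scara3, Nipal2, Tnfrsf19, Macc1, Pak6, Ugt8a, Cftr, Epcam, Elovl7, Hnf4g and Chst9. Some were shared with the Dmbt1 or Mmp7 nuclei, such as Chst9 at 635 CPM and Hnf4g at 524 there. Others were far lower in those nuclei: Tnfrsf19, at 142 CPM in members, stood at 8.41, Lamc3 at 35.3 and Ctnnd2 at 53.8 against 701.

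Transcripts of signals and their receptors in these nuclei were read from lists. Pdgfd, a ligand of the PDGF receptor on mesenchymal cells, was at 2939 CPM in members against 217 in other nuclei, and Pdgfc at 830 against 108. Vegfa, the endothelial growth factor, was at 336 against 134. Shh and Il6 had no UMI in the members. Erbb4, a neuregulin receptor, was at 6356 against 168, and Fgfr2 at 1375 against 966. Of the Hippo pathway, Wwc1, an upstream activator, was at 1057 against 129, whereas the effectors Yap1 (172 against 127) and Wwtr1 (222 against 165) were near the level of other nuclei. Notch2, the Notch receptor of duct formation, was at 284 against 96.8. Of the bile acid genes, the receptor Gpbar1 and the basolateral exporters Slc51a and Slc51b had no UMI in the members. Ror1, a receptor with a role in caveolae, was at 1487 against 143.

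**Figure D3:**
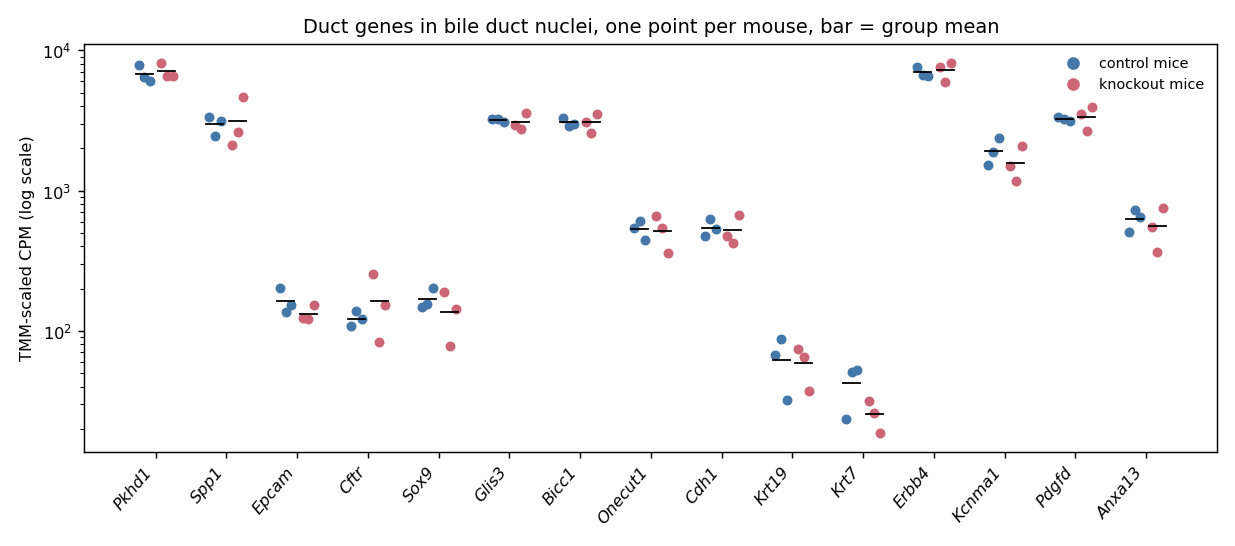
TMM-scaled CPM (log scale) of 15 duct genes in the bile duct nuclei of each mouse, with bars at group means. The first 5 genes are those of the rule, and the control and knockout mice overlap in all 15.

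Knockout was compared with control on counts summed over the members of each mouse, with edgeR's quasi-likelihood test and Benjamini-Hochberg adjustment over all genes. No gene of 7007 tested passed an adjusted p of 0.05 (percent called 0.0), and DESeq2 also called 0. At an unadjusted p under 0.05 edgeR had 195 genes (2.78%), 98 higher and 97 lower in knockouts, and DESeq2 88. The groups did not overlap for 3.87% of tested genes with knockouts higher and 3.95% with knockouts lower. With 3 mice a group and 54 to 135 nuclei per mouse, a gene that did not pass is not shown to be the same in both groups.

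The target gene was checked first. Plvap had 8 UMIs in all members: 1, 6 and 0 in the controls and 1, 0 and 0 in the knockouts. This is too few to compare, and says nothing of the deletion, which is aimed at stellate cells.

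The duct genes Glis3 and Bicc1 overlapped between the groups. Glis3 had 3215, 3260 and 3099 CPM in controls and 2958, 2747 and 3596 in knockouts, a log2 fold of -0.04 (SE 0.15). Bicc1 had 3285, 2886 and 3002 against 3082, 2564 and 3532, a log2 fold of 0.00 (SE 0.16). Of the 17 tested biliary transcription factors, 16 had a log2 fold below 0, with a median of -0.12 beside 0.01 over all tested genes. None was called, and 3 were lower in every knockout (3.95% over all tested genes, the share beside which the counts of non-overlapping genes in the following lists also stand, or 3.87% for those higher). Among these were Sox4, a partner of SOX9 in duct formation (95.5 ± 13.3 CPM in controls, 62.0 ± 14.5 in knockouts), and Creb3l2 (212 ± 4 and 148 ± 24.6), both SD, n = 3. Knockout 2, whose members included the 13 hepatocyte-led nuclei, was the lowest library for this list's summed level (7852 CPM, others 8419 to 9499). Among the members with at least 0.25% marker UMIs, described below, 12 of 17 were below 0, with a median of -0.12 and the same count of 3 lower in every knockout.

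Of the ductal fluid and ion transport genes, 15 of 19 tested were below 0 (median -0.25), none was called, and Kcne3, a potassium channel subunit of secretory epithelia, was the 1 with all knockouts lower (109 ± 1.13 CPM in controls, 74.6 ± 15.7 in knockouts). Atp1b1, a subunit of the sodium pump, stood at 490 ± 77.1 and 356 ± 99.6, with overlap. The median moved to -0.12, with 12 of 18 below 0, in the members with at least 0.25% marker UMIs. Genes of the primary cilium and polycystic disease split evenly, with 11 of 22 on each side of 0 and a median of 0.02. Among them Anks6, a ciliary scaffold, was higher in every knockout (19.9 ± 7.98 and 41.7 ± 8.28 CPM) and Kif3b, a motor of ciliary transport, lower in every knockout (68.6 ± 6.74 and 42.0 ± 6.99). Neither passed the test. Of 10 tested keratins and surface genes, 7 were below 0 (median -0.12) and all overlapped. Krt19 stood at 62.1 ± 27.9 CPM in controls and 58.6 ± 19.2 in knockouts. With at least 0.25% marker UMIs, 4 of 10 tested keratins and surface genes were below 0 (median 0.03).

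Junction and polarity genes had 12 of 19 below 0 (median -0.03), with Tjp1, Pard3 and Dsp lower and Esrp2 higher in every knockout. Tjp1, the tight junction scaffold ZO-1, was at 258 ± 14 and 208 ± 26.3 CPM. Among the members with at least 0.25% marker UMIs, 10 of 18 junction and polarity genes were below 0 (median -0.01). In that set 0 of them were lower in every knockout and 1 was higher. Basement membrane and integrin genes had 11 of 15 below 0 (median -0.18), Hippo and YAP genes 11 of 16 (median -0.14) and Notch genes 7 of 10 (median -0.10). In the Hippo list Lats2, a kinase that restrains YAP, was lower in every knockout (93.1 ± 13.2 and 71.6 ± 6.74 CPM). Of the 6 tested signals to portal cells, 3 were on each side of 0. Pdgfd had 3332, 3218 and 3151 CPM in controls and 3492, 2647 and 3924 in knockouts, with the controls inside the range of the knockouts. None of these genes was called. In the growth factor receptor list, Egfr and Ghr show the weight of 1 library: Egfr had 917, 331 and 382 CPM in controls and 268, 3702 and 337 in knockouts, and Ghr 661, 185 and 101 against 113, 2927 and 194. Knockout 2 stood far above the rest for both, and control 1 came next, the 2 libraries that held the hepatocyte-led nuclei. With marker UMIs at 0.25% or more, the log2 folds went from 1.42 to -0.12 for Egfr and from 1.78 to -0.25 for Ghr.

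For this reason each count was also taken over the 495 members with at least 0.25% of UMIs from the 5 markers, a limit set after seeing the data. The 38 members below it held 11.7%, 13.5% and 1.66% of member UMIs in the controls and 1.32%, 32.2% and 3.22% in the knockouts. In this set edgeR called 0 of 6469 genes and DESeq2 called 1, Iigp1. The unadjusted count was 256 (3.96%), and the non-overlapping shares were 4.39% higher and 4.56% lower.

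**Figure D4:**
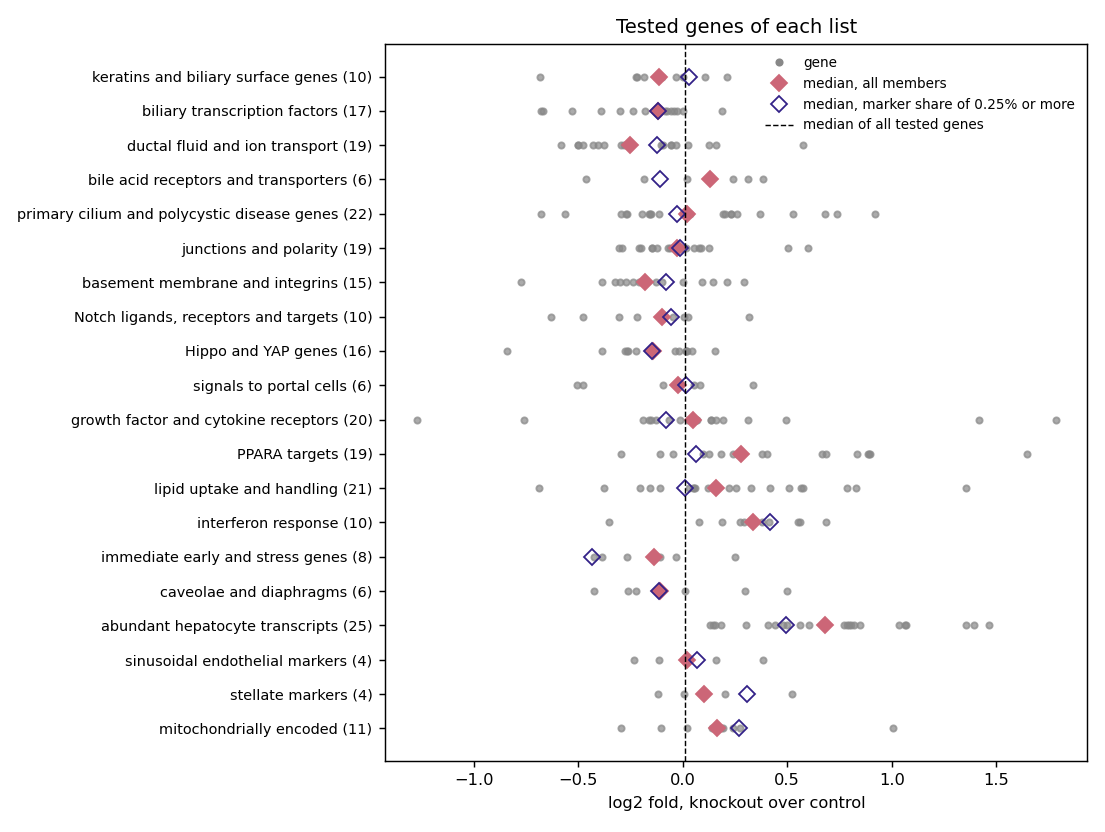
Log2 fold of knockout over control for each tested gene (grey) of 20 lists with at least 4 tested genes, whose number is in brackets, with the median over all members (filled) and over members with at least 0.25% marker UMIs (open). Abundant hepatocyte transcripts have the highest median, 0.68 and 0.49, and PPARA targets fall from 0.28 to 0.07 between the 2 sets.

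Genes of fatty acid use, the subject of the study, were read in the same way. Of the 19 tested PPARA targets, 16 were above 0 with a median of 0.28, but in the marker-limited set 9 of 16 were above 0 with a median of 0.07. Ppara, the receptor itself, had 539, 49.1 and 36.2 CPM in controls and 39.5, 554 and 139 in knockouts, so control 1 and knockout 2 stood far above the rest. For Cpt1a, which admits fatty acids to mitochondria, the mean was 151 ± 25.2 CPM over controls and 174 ± 104 over knockouts (SD, n = 3), with overlap. Of 21 tested lipid uptake and handling genes 16 were above 0 (median 0.16), against 10 of 18 (median 0.01) in the marker-limited set. No gene of either list was called in either set.

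The transcripts that hepatocytes make in abundance were the list with the largest median. All 25 had a log2 fold above 0, with a median of 0.68 beside 0.01 over all genes, 10 were at an unadjusted p under 0.05 (2.78% over all tested genes) and 8 were higher in every knockout (3.87% over all tested genes). None was called. In the marker-limited set 22 of 25 were above 0, with a median of 0.49, and 8 were higher in every knockout (4.39% over all tested genes). The summed level was 6743, 6206 and 7109 CPM in the controls and 6440, 13161 and 9836 in the knockouts, so knockout 1 lay within the controls.

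Alb, the plasma albumin gene, had 1051, 838 and 1029 CPM in controls and 1176, 2180 and 1618 in knockouts, without overlap (log2 fold 0.77, SE 0.21, edgeR adjusted p = 0.999). Mup3, a major urinary protein, had 163, 160 and 133 against 258, 295 and 254 (log2 fold 0.82, SE 0.20). Fabp1, the liver fatty acid binding protein, had 291, 227 and 229 against 358, 541 and 384 (log2 fold 0.78, SE 0.20). Apoc3, an apolipoprotein that restrains lipoprotein lipase, had 52.4, 83.6 and 80.4 against 103, 189 and 166 (log2 fold 1.07, SE 0.29). None passed the test, and adjusted p was 0.999 for each. The same transcripts were read in the 20643 other nuclei under 0.3% hepatocyte genes, in CPM on plain totals. There Alb stood at 388, 342 and 315 in controls and 575, 867 and 889 in knockouts, and in members at 960, 764 and 945 against 1105, 1920 and 1478. In nuclei with at least 1% hepatocyte genes Alb was at 3052, 4245 and 3433 against 5701, 4468 and 6785, with 66 nuclei in control 1 and 46 in knockout 2. All knockouts were above all controls in each of these 3 sets. Mup3 overlapped in the other nuclei (167, 130 and 179 against 176, 218 and 197). In the hepatocyte nuclei Mup3 overlapped as well (560, 522 and 635 against 588, 513 and 606). Apoc3 also overlapped in both sets, with 78.5, 85.2 and 98.2 against 79.9, 107 and 109 in the other nuclei. Fabp1 was higher in every knockout in the other nuclei (259, 163 and 216 against 275, 316 and 324). In the hepatocyte nuclei Fabp1 overlapped (886, 465 and 425 against 540, 996 and 609). Whether free RNA from hepatocytes sets these levels in duct nuclei was not tested.

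Iigp1, an interferon-induced GTPase, was the next gene with all knockouts higher. It had 20.4, 23.6 and 20.1 CPM in controls and 57.9, 198 and 60.1 in knockouts, a log2 fold of 2.32 (SE 0.52, edgeR adjusted p = 0.999). The UMIs behind it were 7, 13 and 5 in controls and 22, 91 and 13 in knockouts. In knockout 2 they came from 36 nuclei with up to 28 in 1 nucleus, in knockout 1 from 9 nuclei with up to 12, and in knockout 3 from 6 with up to 7. In the marker-limited set DESeq2 gave an adjusted p of 0.0307. In other nuclei under 0.3% hepatocyte genes the Iigp1 level was 167, 103 and 127 CPM for the controls and 208, 189 and 184 CPM for the knockouts. Of the 10 tested genes of the interferon list, 9 were above 0 with a median of 0.34 (0.42 in the marker-limited set). Irf9, a subunit of the interferon-activated factor, was the 1 with all knockouts higher, at 51.0 ± 9.53 and 63.6 ± 0.956 CPM. Rnf213, an interferon-induced ubiquitin ligase, had 108, 125 and 60.3 CPM against 150, 117 and 92.4, with overlap. The list's summed level was 693, 723 and 667 CPM in controls and 866, 849 and 758 in knockouts, without overlap, and none of its genes was called.

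The genes with all knockouts lower and the smallest unadjusted p were Pde3a, Zfpm2, Pde8b, Dmd and Efhb, none of which passed the test. Pde3a, a cyclic nucleotide phosphodiesterase, had 58.3, 90.9 and 36.2 CPM in controls and 10.5, 8.69 and 9.24 in knockouts (log2 fold -2.73, SE 0.47, edgeR adjusted p = 0.247). Zfpm2, a cofactor of GATA factors, had 43.7, 41.8 and 40.2 against 2.63, 4.34 and 9.24 (log2 fold -3.05, SE 0.58, edgeR adjusted p = 0.318). Pde8b, another phosphodiesterase, had 58.3, 63.6 and 36.2 against 15.8, 13 and 18.5 (log2 fold -1.81, SE 0.40). Dmd, which encodes dystrophin, had 169, 289 and 277 against 132, 135 and 83.2 (log2 fold -1.05, SE 0.26), and Efhb had 37.9, 80.0 and 68.3 against 13.2, 15.2 and 32.4 (log2 fold -1.75, SE 0.44). The last 3 had an adjusted p of 0.999.

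Zfpm2 and Pde3a rested on few nuclei. Zfpm2 had 15, 23 and 10 UMIs in the controls and 1, 2 and 2 in the knockouts. Of these 53 UMIs, 43 (81.1%) were in 4 control nuclei, 1 from control 1, 2 from control 2 and 1 from control 3. The same 4 nuclei held 47.2% of the Pde3a UMIs and 94.6% of those of Lama2, a laminin chain of muscle and mesenchyme. Their summed level of the portal fibroblast and muscle markers was 2139 CPM against 51.4 in the other members, of the mesothelial markers 1774 against 248, of the stellate markers 3912 against 2360, and of the 5 rule markers 2243 against 9379. Each carried 4 to 23 rule marker UMIs, and scrublet called none of them a doublet.

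**Figure D5:**
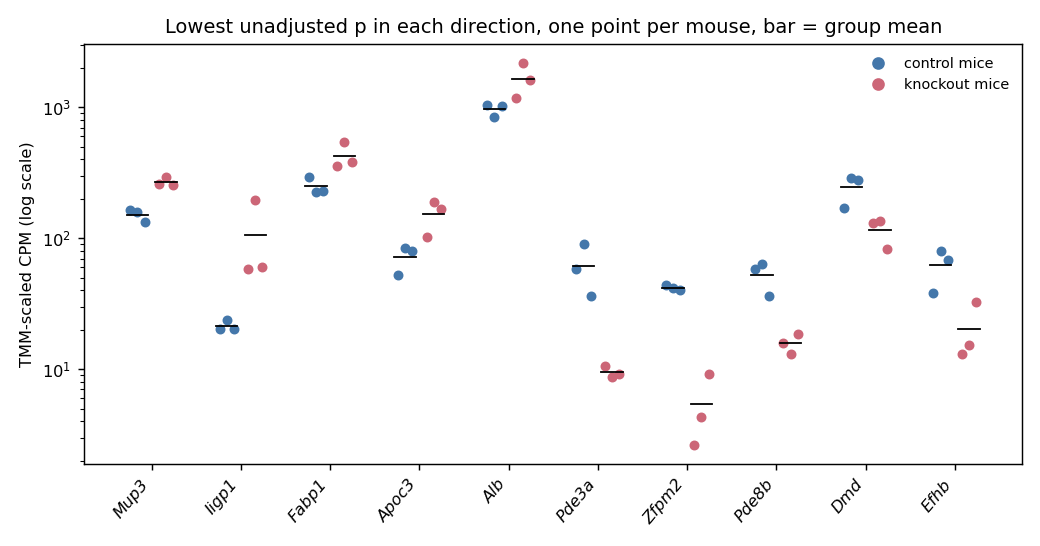
TMM-scaled CPM (log scale) per mouse for the 5 genes with the smallest unadjusted p in each direction among those whose groups do not overlap, with bars at group means. Iigp1 reaches 198 CPM in knockout 2 and about 60 in the other knockouts, and none of the 10 genes passed the adjusted test.

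Whether the knockout effect differed between bile duct nuclei and all other nuclei was tested with a class by genotype term in edgeR, with mouse as a factor. Of 17769 genes, 2 passed (0.0113%), both with a lower effect in bile duct nuclei. For Zfpm2 the log2 effect was -3.05 in bile duct nuclei and -0.08 (SE 0.13) in other nuclei, where it stood at 511 ± 28.7 CPM in controls and 483 ± 62.2 in knockouts (SD, n = 3). The difference was -3.05 (SE 0.41, edgeR adjusted p = 0.00925). For Pde3a it was -2.77 (SE 0.40, edgeR adjusted p = 0.0125), with 250 ± 12.2 and 258 ± 30.8 CPM in other nuclei. Without knockout replicate 1 neither passed (adjusted p = 0.088), and against hepatocyte nuclei alone neither passed (adjusted p = 1). Without knockout replicate 3 Pde3a did not pass (adjusted p = 0.0651). In the marker-limited set the difference for Zfpm2 was -2.07 (SE 2.33, adjusted p = 1) and did not pass, whereas Pde3a did, at -2.38 (SE 0.46, adjusted p = 0.0186).

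The remaining lists held no called gene. Of the 8 tested immediate early and stress genes, 7 were below 0, with a median of -0.14, and in the marker-limited set all 7 tested were below 0, with a median of -0.43. Their summed level was 597, 583 and 567 CPM in controls and 403, 747 and 453 in knockouts, so knockout 2 was the highest and the other knockouts the lowest. Of the 6 tested caveolae and diaphragm genes, 3 lay on each side of 0 (median -0.11). Ror1 had 1887, 1712 and 1772 CPM against 1650, 1309 and 1516, with all knockouts lower (log2 fold -0.26, SE 0.15), and Cav1, the caveolar coat protein, had 68.4 ± 36.4 against 86.0 ± 13.1. Of the 6 tested bile acid receptors and transporters, 4 were above 0 (median 0.13), and 2 were above 0 in the marker-limited set (median -0.11). Abcc3, a basolateral exporter of conjugates, stood at 154 ± 30.6 and 199 ± 49.9 CPM. Of the mucous and gland genes, 9 of 18 had no UMI in the members, among them Muc5b, Muc13 and Tff1.

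Summed transcripts of other cell types overlapped between the groups in every list given here. The endothelial list summed to 591 to 1125 CPM in controls and 662 to 847 in knockouts, with 0 of its 15 markers above the level of other nuclei. The macrophage list summed to 312 to 353 and 319 to 405 CPM, with 0 of 13 above. The stellate list summed to 2009 to 2782 and 2321 to 2853 CPM, most of it Ank3 (1268 CPM) and Nkain2 (570 CPM), with 1 of 13 above. The mesothelial list summed to 201 to 303 and 263 to 351 CPM, with 5 of 6 markers above the level of other nuclei. Most of it was Gpm6a, a membrane glycoprotein also found outside mesothelium, at 251 against 13.9 CPM in other nuclei, and Msln was at 3.31 against 0.439. The portal fibroblast and muscle list summed to 67.0 to 109 and 36.8 to 92.4 CPM, with 2 of 13 above: Entpd2 at 14.5 against 1.03 CPM and Fbln2 at 21.5 against 4.08, while Pi16 and Mfap5 were at 0. The part of these transcripts in the results was not tested. The lymphocyte list summed to 29.1 to 131 and 41.6 to 182 CPM. Proliferation markers summed to 8.74 to 24.1 and 4.34 to 21.1 CPM, and Top2a and Ccnb1 had no UMI. The mitochondrially encoded transcripts summed to 2443 to 3047 CPM in controls and 2660 to 3384 in knockouts, with 9 of 11 tested above 0 and a median of 0.16.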

How the data were processed

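Per the labels' protocols, Chromium 3′ chemistry (kit version 3.1) was used. Cell Ranger 7.0.1 and the mm10 build are given in the submitters' processing notes, but 7.1.0 in the file headers. The deposited matrices hold raw UMI counts per gene and barcode, for 32285 features and 27297 barcodes. For introns and strand, the counting setting was not given in the sources used here.

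Members were selected by the rule in the report. Doublets were called with scrublet in scanpy 1.11.5 (expected rate 0.06) but kept, 4 among the members. The members were clustered with leidenalg 0.10.2 on 1500 variable genes, 15 components and 15 neighbours at resolution 0.25, chosen after seeing the data. Counts were summed per mouse and tested with edgeR 4.0.16 (TMM, filterByExpr, robust quasi-likelihood fit) in R 4.3.3, with DESeq2 1.42.0 as an alternative. CPM by mouse is on TMM-scaled totals of the tested genes, and CPM between sets of nuclei is on plain totals. The standard error of a log2 fold is derived from the F statistic. The script was tested on simulated data.

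Library totals ran from 23153182 to 27199466 UMIs. Groups come from the genotype labels. Replicate numbers follow accession order and name a mouse only. The labels call the mice separate animals by number and give no batch.

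The named genes were the 5 rule markers, the genes past the threshold, or else the 5 with the smallest unadjusted p in each direction among non-overlapping genes at 10 CPM or more with an established symbol. To these were added list members (those passing and the 4 with the highest CPM), the 25 leading genes over other nuclei, Plvap and the genes of the class by genotype term. Genes named for non-overlap within a list, the leading genes of groups and Cdh13, Lama2 and Iigp1's comparison across nuclei were chosen after their values were seen. The members, the lists and the rule were chosen with earlier results of these data known. Alternatives were other normalisations, filters, member limits and left-out mice. Some genes that the rule for named genes took are not reported here.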

Additional observations from a re-analysis of the deposited data

Results flagged for a closer look

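The class by genotype term singled out 2 genes, because the knockout effect in bile duct nuclei differed from that in all other nuclei by edgeR's test of the difference. For Zfpm2 the difference was -3.05 on the log2 scale, with all 3 knockouts below all 3 controls in bile duct nuclei and an adjusted p of 0.00925, which ranged from 0.0015 to 1 over the alternatives. For Pde3a it was -2.77, with the same separation and an adjusted p of 0.0125, which ranged from 0.000794 to 1. Both counts rest on few control nuclei, as described above: 4 nuclei held 81.1% of the Zfpm2 UMIs and 47.2% of the Pde3a UMIs. Their rule marker shares were 0.489% in control 1, 0.131% and 0.0743% in control 2 and 0.223% in control 3, beside the limit of 0.25%. In the marker-limited set Zfpm2 overlapped between the groups, and its difference was -2.07 (SE 2.33). There Pde3a kept all knockouts lower, with a difference of -2.38 (SE 0.46). The part of these 4 nuclei in the difference was not tested.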

How the results depend on the processing

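No paired analysis was possible because the replicate numbers were given in accession order and pair no mice. The count of genes called between knockout and control, 0 with edgeR, became 21 of 19336 tested without the filter on low counts (10 higher and 11 lower in knockouts). Among these were Alb, Iigp1, Pde3a, Zfpm2 and Dmd (edgeR adjusted p from 1.53e-05 to 0.0178). Mup3, Fabp1, Apoc3, Pde8b and Efhb, also named by their unadjusted p, were not called there. Without control 1 and knockout 2 the count was 1 (Mup17, lower in knockouts). It was 0 under the other alternatives planned, including each left-out mouse (0 to 0). With marker UMIs of at least 0.25%, which was chosen after seeing the data, it was 1 with DESeq2 (Iigp1, higher in knockouts). In that set it ranged from 0 to 4 without single mice. The 4 genes without control replicate 1 (Mup17, Saa2, Arrdc2 and Dmd) were all lower in knockouts. There was 1 without control replicate 3 (Cdh13, lower), knockout replicate 1 (Iigp1, higher) or knockout replicate 2 (Mup17, lower). The causes were not tested. The 2 class by genotype genes became 24 without control 1 and knockout 2 and 0 against hepatocyte nuclei, where 9574 genes were tested, and ranged from 1 to 4 without single mice: 3 without control replicate 1, 4 without control replicate 2 or control replicate 3, 1 without knockout replicate 1 or knockout replicate 3. With marker UMIs of at least 0.25% the 2 genes were Pde3a and Cdh13. The difference in the share of nuclei, 0.00737 percentage points, changed sign to -0.0339 with at least 6 marker UMIs, -0.00775 with at least 3, -0.0464 with hepatocyte genes under 0.15% and -0.347 without control 1 and knockout 2, and ranged from -0.238 to 0.416 without single mice (-0.155, -0.238, -0.0689 and -0.184 being the negative values), with exact permutation p from 0.6 to 1. The log2 folds of the 10 genes named by their unadjusted p kept their direction in every alternative in which they were tested. Depth limits what could be seen: with 54 to 135 nuclei per mouse, 7007 of the 32285 features passed the filter on low counts.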

Other observations

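Of the nuclei with over 1 UMI of Dmbt1 or Mmp7, which stand outside the members, control 2 held 191 of 208, and the other libraries held 8, 1, 2, 2 and 4. Their leading genes over the members were Dmbt1 (7018 against 3.73 CPM), which the rule used, the chloride and bicarbonate exchanger Slc26a3 (261 CPM against 0), the chemokine Cxcl5 (171 against 0.414) and the oxidase Duox2 (265 against 2.07). Cdh13, an adhesion protein, had 22, 107 and 9 UMIs in members of the controls and 16, 3 and 2 in those of the knockouts, so control 2 held most of them.

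Near the limits of the rule, 14 members had exactly 4 marker UMIs and 19 nuclei just outside had 3, with median marker shares of 0.0467% and 0.0296%. The 14 members with 0.2% to 0.3% hepatocyte genes had a median marker share of 0.0441%, beside 0.0408% in the 22 nuclei with 0.3% to 0.4%. By contrast, the 45 members with 1 UMI of Dmbt1 or Mmp7 had a median share of 0.963%, and the 10 nuclei with 2 had 0.805%. Raising the hepatocyte limit to 1% added 42 nuclei in control 1, 59 in knockout 2 and 5 to 20 in each of the other libraries.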
